A study of Mus musculus with 20 samples.

Results

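DNFB dermatitis of mouse epidermis was compared with acetone-treated control epidermis in 10 libraries, 5 per group, of 20 libraries in the series. The members were chosen by their treatment label, and the other 10 libraries come from pancreas. All 10 epidermis libraries are labelled as epithelial skin of WT mice, and the study's methods give C57BL/6 as its wild-type strain. In those methods, male and female mice aged 4 to 6 weeks were sensitized on the abdomen with 0.5% and then 0.25% DNFB in acetone with olive oil. Back skin was then challenged with 0.25% DNFB, 3 times per week for 22 days, and the epidermis was isolated for Smart-Seq2, which amplifies whole transcripts without molecular identifiers. Control mice received acetone, and whether they were also sensitized with DNFB was not given in the sources used here. The labels do not say whether each library came from a separate mouse, so p-values measure the spread between these libraries, which may in part be technical.

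DNFB (2,4-dinitro-1-fluorobenzene) is a hapten, a small molecule that binds proteins and is then recognised as an allergen on later contact. Epidermis is built by keratinocytes that leave the basal layer, change their keratins, assemble a cornified envelope and secrete lipids, and it also holds Langerhans cells, T cells, melanocytes and hair follicles. In irritated or wounded epidermis keratinocytes are known to make the alternative keratins Krt6 and Krt16 and small proline-rich proteins, while neutrophils and monocytes can enter from the blood.

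Libraries differed strongly in how much of their counts came from genes of this tissue, within both groups. The deposited values are expected counts, and 12 satellite-like predicted genes, which are left out from here on, took 37.9% to 93.4% of a library with acetone and 58.3% to 83.7% with DNFB. The counts on all other genes were 92640, 123847 and 152978 in acetone libraries 1, 2 and 3 but 1073987 and 938689 in acetone libraries 11 and 12, against 150167 to 685481 with DNFB. One count was therefore worth 11.3 to 20 normalized CPM (counts scaled to a library of 1000000 counts without the satellite-like genes, here with TMM scaling) in acetone libraries 1 to 3 and 1.07 to 10.1 in the others. Without TMM, ribosomal protein genes held 5235 to 58695 CPM with acetone and 13718 to 60517 with DNFB. Olfactory and vomeronasal receptor genes, which belong to sensory neurons, held 6654 to 55616 with acetone and 17434 to 68430 with DNFB. Of the 147 such receptors tested, 138 (93.9%) had a positive log2 fold change, against 54.1% of all genes tested. Their median was 0.86 against 0.05 over all genes tested, and the part of this in small list medians was not tested. Krt5, Krt14, Krt1 and Krt10, which define epidermis, together held 549 to 9086 CPM with acetone and 653 to 9056 with DNFB, and at most 23 in pancreas.

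**Figure D1:**
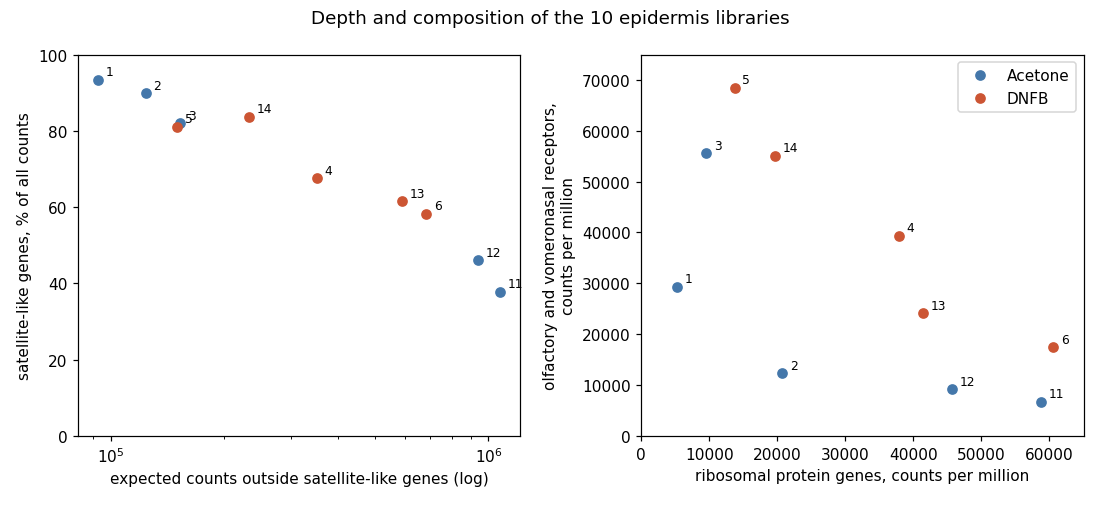
Left, the share of all counts on satellite-like genes (percent) against the expected counts outside them (log axis), 1 point per library with its label number. Right, CPM of olfactory and vomeronasal receptor genes against those on ribosomal protein genes. Acetone libraries 1, 2 and 3 lie at 92640 to 152978 usable counts and acetone libraries 11 and 12 at 938689 and 1073987, with the 5 DNFB libraries between 150167 and 685481.

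In DNFB-treated epidermis Il1b, Arg1, Acod1, S100a8 and S100a9 rose and Krt77 fell. Of 5007 genes tested by edgeR's quasi-likelihood test with Benjamini-Hochberg adjustment, 5 rose (0.0999% of those tested) and 1 fell (0.02%) at an adjusted p-value under 0.05. Before adjustment, 107 genes were higher (2.14%) and 150 lower (3.0%) at p under 0.05. In 27 genes (0.539%) every DNFB library was above every acetone library, and in 34 (0.679%) every one was below. DESeq2, which the study names, tested 17633 genes and called 42 higher (0.238%) and 43 lower (0.244%), including all 6 of edgeR's genes. Limma voom with quality weights called 705 higher (14.1% of the 5007) and 104 lower (2.08%), and 138 of its higher genes are olfactory or vomeronasal receptors, so its counts are read against these shares. A difference in bulk tissue can come from the number of cells of a type or from the RNA per cell, and these cannot be told apart here.

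Il1b encodes the inflammatory cytokine interleukin-1β and lies on the minus strand of chromosome 2 of GRCm38 from 129364570 to 129371139. It was at 40.0, 0, 0, 14 and 2.83 normalized CPM in acetone libraries 1, 2, 3, 11 and 12, and at 95.8, 323, 123, 423 and 1284 in DNFB libraries 4, 5, 6, 13 and 14. The groups did not overlap, and DNFB library 14 was the highest. Its log2 fold change was 5.56 ± 0.99 (SE, adjusted p = 0.0450, edgeR).

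Arg1, which encodes the arginine-degrading enzyme arginase 1 of alternatively activated macrophages, lies on the minus strand of chromosome 10 from 24915221 to 24927484. Its level was 40.0, 44.2, 11.3, 11.8 and 26.9 normalized CPM in the acetone libraries and 54.8, 394, 295, 846 and 771 in the DNFB libraries, in the same order. DNFB library 4 was only just above the acetone libraries, while the other 4 DNFB libraries were far above them. The log2 fold change was 4.30 ± 0.78 (SE, adjusted p = 0.0450, edgeR). With the range of the label numbers as a covariate Arg1 was no longer past the threshold (adjusted p = 0.0587), and edgeR then called 4 genes higher and 1 lower.

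The remaining calls were Acod1, S100a8 and S100a9, which rose, and Krt77, which fell, and they serve here as a base. Acod1 makes the macrophage metabolite itaconate, and S100a8 and S100a9 encode the subunits of calprotectin, a major protein of neutrophils that inflamed keratinocytes make too. Their log2 fold changes were 6.36 ± 1.06, 6.31 ± 1.08 and 7.27 ± 1.35 (SE). Krt77, a keratin of suprabasal cells, was at 169 to 3259 normalized CPM with acetone and 0 to 20.2 with DNFB, a log2 fold change of -7.23 ± 1.08 (SE, adjusted p = 0.0255, edgeR). In each of the 6 called genes every DNFB library lay beyond every acetone library. Whether they passed the adjusted threshold depended on single libraries. With each library left out in turn, Krt77 stayed past the threshold in 7 of 10 fits, Arg1 in 2, and each of the other 4 genes in 4, while none of the 6 changed direction. Without DNFB library 5, without DNFB library 13 or without acetone library 2, 0 genes of either direction passed in edgeR, against 85 to 214 higher and 115 to 214 lower before adjustment.

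**Figure D2:**
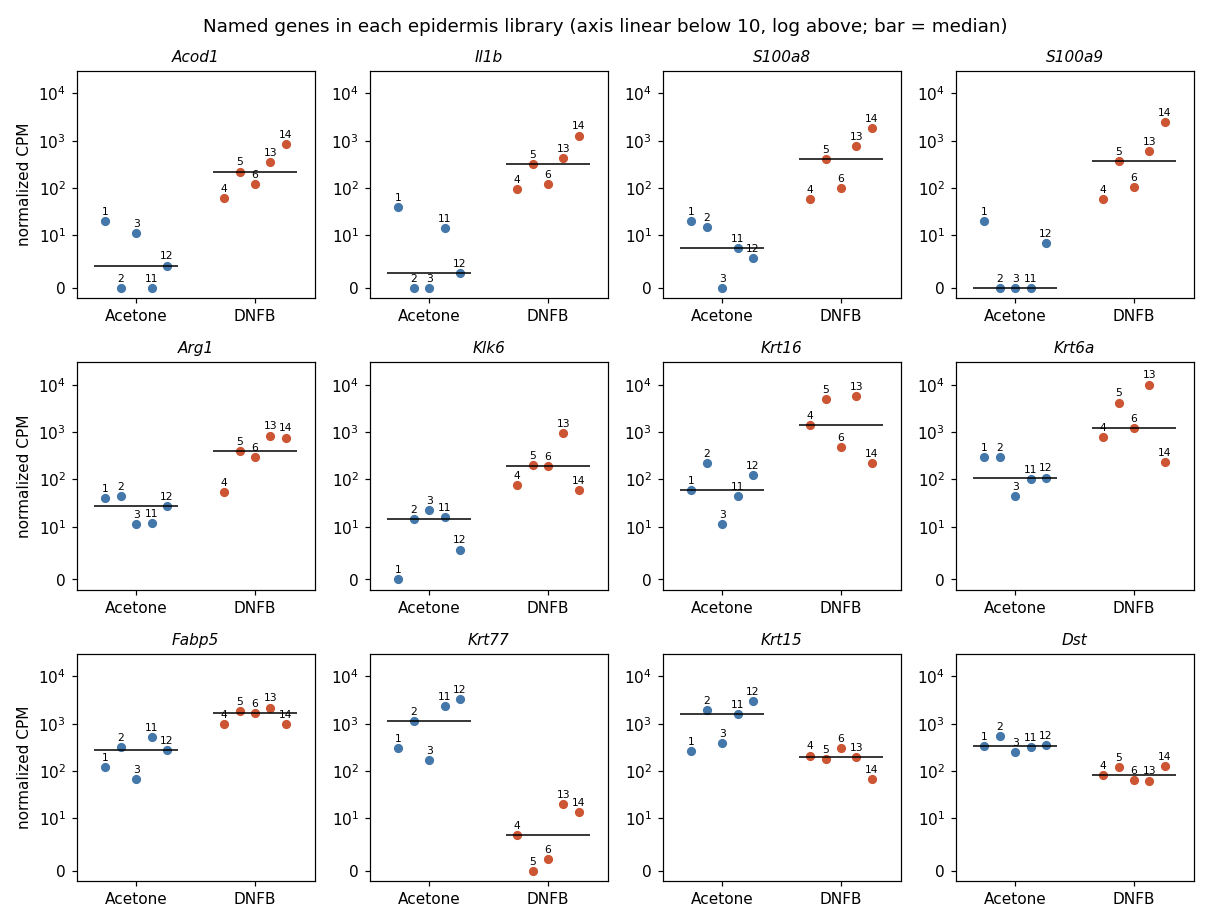
Normalized CPM (linear below 10, log above) of 12 genes in each library, with the label number beside each point and a bar at the group median. Il1b reached 95.8 to 1284 with DNFB against 0 to 40.0 with acetone, Krt16 reached 223 to 5754 against 11.3 to 221, and Dst lay at 62.7 to 128 against 248 to 559.

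Promoter sequence was available in the RefSeq table for 5 of the 6 called genes, with no entry for Arg1. The 250 bases before each RefSeq start are shown 5′ to 3′ on the gene's strand (GRCm38.p6), so that the genes that rose can be set beside Krt77, which fell. Sprr1b, a stressed keratinocyte gene, and Dct, a pigment gene, are added as examples chosen after their values were seen. Capitals mark matches to the TATA box letters TATAAA, the AP-1 letters TGANTCA and the M-box letters TCATGTG, searched on both strands. These are held by 12.4%, 6.75% and 3.25% of the 32851 promoter stretches of this length in the table.
Krt77, chr15:101869706-101869955, minus strand: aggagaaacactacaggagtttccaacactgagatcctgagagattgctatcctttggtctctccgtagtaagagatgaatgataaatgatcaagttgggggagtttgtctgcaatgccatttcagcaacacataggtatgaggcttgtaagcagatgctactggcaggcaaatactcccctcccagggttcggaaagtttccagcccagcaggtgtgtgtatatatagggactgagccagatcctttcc
Acod1, chr14:103046762-103047011, plus strand: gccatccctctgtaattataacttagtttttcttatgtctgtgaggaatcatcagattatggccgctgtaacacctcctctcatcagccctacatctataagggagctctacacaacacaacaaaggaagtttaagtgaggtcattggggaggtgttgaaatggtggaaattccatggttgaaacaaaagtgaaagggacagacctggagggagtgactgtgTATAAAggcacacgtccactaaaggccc
S100a8, chr3:90668821-90669070, plus strand: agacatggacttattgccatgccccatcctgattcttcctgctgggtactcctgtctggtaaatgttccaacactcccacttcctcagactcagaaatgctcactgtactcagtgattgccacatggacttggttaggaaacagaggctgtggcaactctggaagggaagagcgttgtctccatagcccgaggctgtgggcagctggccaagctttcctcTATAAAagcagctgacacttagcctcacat
Il1b, chr2:129371140-129371389, minus strand: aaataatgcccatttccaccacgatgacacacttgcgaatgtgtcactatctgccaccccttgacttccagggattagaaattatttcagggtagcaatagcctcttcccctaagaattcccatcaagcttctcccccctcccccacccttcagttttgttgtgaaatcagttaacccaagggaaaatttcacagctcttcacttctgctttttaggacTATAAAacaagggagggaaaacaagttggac
S100a9, chr3:90695722-90695971, minus strand: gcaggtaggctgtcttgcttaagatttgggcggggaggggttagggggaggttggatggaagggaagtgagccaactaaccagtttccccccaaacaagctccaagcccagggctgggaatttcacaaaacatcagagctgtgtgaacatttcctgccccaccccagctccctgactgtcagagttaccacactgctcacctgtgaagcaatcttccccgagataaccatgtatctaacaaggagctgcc
Sprr1b, chr3:92438780-92439029, minus strand: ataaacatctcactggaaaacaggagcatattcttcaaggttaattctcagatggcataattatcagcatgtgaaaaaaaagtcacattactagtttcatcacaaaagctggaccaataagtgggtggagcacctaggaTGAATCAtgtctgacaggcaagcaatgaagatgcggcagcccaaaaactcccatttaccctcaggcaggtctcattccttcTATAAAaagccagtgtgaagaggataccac
Dct, chr14:118052247-118052496, minus strand: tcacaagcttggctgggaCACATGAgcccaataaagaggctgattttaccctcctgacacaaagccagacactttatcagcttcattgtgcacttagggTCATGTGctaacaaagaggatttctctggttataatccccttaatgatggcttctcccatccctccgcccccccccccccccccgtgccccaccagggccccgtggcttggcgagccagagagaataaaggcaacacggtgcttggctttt

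A TATA box match began 28, 30 and 31 bases before the start of Acod1, S100a8 and Il1b, and 30 bases before that of Sprr1b. Krt77 and S100a9 held no match to these 3 sets of exact letters in this window. TATA-like letters other than TATAAA, such as the tatatata near the end of the Krt77 stretch, were not searched for. Sprr1b also held an AP-1 match 111 bases before its start, and Dct held M-box matches 232 and 151 bases before its start. Among list members with an entry, a TATA match was found in 12 of 27 stressed keratinocyte genes (44.4%) and an M-box match in 6 of 15 pigment genes (40.0%). TATA matches were found in 32.4% of neutrophil and activated myeloid, 13.3% of pigment and 11.8% of suprabasal genes. M-box matches were found in 2.94% of the myeloid, 5.88% of the suprabasal and 0% of the stressed keratinocyte genes. These shares count genes with a match in any promoter, whereas the shares over the whole table count promoter stretches. Such matches describe letters only and show no binding.

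Stressed keratinocyte genes had positive log2 fold changes in every member tested, and none passed the adjusted threshold in edgeR. Of the 34 members in the table, 9 passed the filter on low counts, and a member low in acetone could pass through its DNFB libraries. Their log2 fold changes ran from 1.06 to 4.96 with a median of 1.83, against 0.05 over all genes tested. Before adjustment, 5 of the 9 had p under 0.05, all of them higher, against 2.14% higher over all genes tested. DESeq2 called 5 members higher, namely Krt6a, Krt6b, Krt16, Sprr1b and Slpi, and limma voom with quality weights called 6. Over all genes they called 0.238% and 14.1% higher.

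Krt16 encodes a keratin of wounded and thickened epidermis. It was at 60.0, 221, 11.3, 44.0 and 125 normalized CPM in the acetone libraries and at 1400, 5067, 492, 5754 and 223 in the DNFB libraries. Libraries 5 and 13 stood highest, and library 14 was level with acetone library 2. EdgeR gave a log2 fold change of 4.82 ± 1.04 (SE, adjusted p = 0.129 in edgeR and 2.05e-05 in DESeq2).

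Krt6a, its pairing partner, was at 300, 294, 45.2, 104 and 110 normalized CPM with acetone and at 801, 4229, 1236, 10122 and 237 with DNFB. Library 14 was again the lowest of the DNFB group and lay inside the acetone range, while the other 4 were above it. Its log2 fold change was 4.32 ± 1.01 (SE, adjusted p = 0.146 in edgeR and 3.78e-05 in DESeq2). The near-identical Krt6b had 4.96 ± 1.28 (adjusted p = 0.257 in edgeR and 0.0134 in DESeq2), and the division of reads between Krt6a and Krt6b is uncertain.

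Small proline-rich proteins are cross-linked into the cornified envelope and increase in stressed epidermis. Sprr2a2 had a log2 fold change of 2.34 ± 0.82 (SE, adjusted p = 0.682, edgeR), and reads can be shared within the Sprr2a genes. Sprr1b was below the filter and held 16 counts over the acetone libraries and 306 over the DNFB libraries. Its level was 0 to 40.0 normalized CPM with acetone and 40.6 to 477 with DNFB, without overlap (adjusted p = 0.000674, DESeq2). Slpi, a secreted inhibitor of neutrophil elastase, held 4 counts with acetone and 190 with DNFB (adjusted p = 0.000611, DESeq2). Antimicrobial defensins were hardly seen, since Defb3, Defb4 and Defb14 held 0 counts with acetone and 1, 5 and 2 with DNFB.

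Basal keratinocyte genes tended lower, led by genes of cell anchorage and of the resting basal layer. Of 18 members 15 were tested, with a median log2 fold change of -0.63. Of these, 6 were lower at an unadjusted p-value under 0.05 and 0 higher, while edgeR called 0, DESeq2 2 lower and limma voom 3 lower. Over all genes tested, 3.0% were lower before adjustment in edgeR, and DESeq2 called 0.244% and limma voom 2.08% lower. Dst, which encodes the hemidesmosome linker dystonin, was at 340, 559, 248, 323 and 346 normalized CPM with acetone and at 82.2, 121, 63.8, 62.7 and 128 with DNFB. Every DNFB library was below every acetone library. Its log2 fold change was -2.01 ± 0.47 (SE, adjusted p = 0.146 in edgeR and 0.000611 in DESeq2).

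Krt15, a keratin of resting basal and follicle stem cells, was at 260, 1899, 395, 1628 and 2942 normalized CPM with acetone and at 212, 182, 310, 197 and 67.6 with DNFB. Acetone libraries 2, 11 and 12 stood highest, and DNFB library 6 was above acetone library 1. The log2 fold change was -2.87 ± 0.75 (SE, adjusted p = 0.261 in edgeR and 0.0103 in DESeq2). Col17a1, a transmembrane collagen of the hemidesmosome, had -2.26 ± 0.80, and Lamb3, a chain of the basement membrane protein laminin-332, had -1.36 ± 0.53, with adjusted p-values of 0.682 and 0.766 in edgeR. Krt14, the main basal keratin, did not follow, with a log2 fold change of 0.52 ± 0.86 (SE, unadjusted p = 0.557, edgeR). The basal median depended on the controls, and was 0.34 without acetone libraries 11 and 12.

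Suprabasal genes had a median log2 fold change of -0.51 over 16 of 24 members tested. Besides Krt77, 2 members were lower at an unadjusted p-value under 0.05 and none higher, and DESeq2 called Krt77 and Krt78. The shares over all genes tested were 3.0% lower before adjustment in edgeR and 0.244% called lower by DESeq2. Krt80, a keratin of differentiating cells, had a log2 fold change of -1.35 ± 0.59 and the desmosomal cadherin Dsg1a -1.75 ± 0.56 (SE, adjusted p = 0.878 and 0.655, edgeR). Krt78, below the filter, was at 40.0 to 229 normalized CPM with acetone and 0 to 20.3 with DNFB, from 340 against 8 counts (adjusted p = 0.000674, DESeq2). Krt1, the main keratin of the spinous layer, held 441 counts with acetone and 418 with DNFB, with a log2 fold change of 0.17 (unadjusted p = 0.821, edgeR). Its partner Krt10 had -1.41 (unadjusted p = 0.171).

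Eppk1 encodes epiplakin, which binds keratin filaments, and was in none of the lists. It was at 740, 309, 147, 561 and 460 normalized CPM with acetone and at 65.0, 90.8, 72.6, 73.9 and 94.6 with DNFB. Every DNFB library was below every acetone library, and the log2 fold change was -2.49 ± 0.52 (SE, adjusted p = 0.111 in edgeR and 0.000393 in DESeq2).

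Cornified envelope genes showed no shared direction. Of 33 members 8 were tested, with a median of 0.09 and values from -1.78 to 1.84, and before adjustment 1 was higher and 1 lower (p under 0.05). EdgeR, DESeq2 and limma voom called 0, 0 and 1 of them. Flg, which encodes filaggrin, the source of the skin's natural moisturising factors, was at 80.0, 0, 45.2, 41.9 and 17 normalized CPM with acetone and at 250, 101, 59.4, 119 and 74.4 with DNFB. DNFB libraries 4, 5 and 13 were above every acetone library, and the log2 fold change was 1.84 ± 0.62 (SE, adjusted p = 0.671, edgeR). Scel, the envelope precursor sciellin, had -1.78 ± 0.78 (adjusted p = 0.878, edgeR). Lor, which encodes loricrin, held only 5 and 16 counts in the acetone and DNFB libraries, and a difference in it was not detectable at this depth. Crct1, a cysteine-rich protein listed with the envelope genes, was below the filter with 18 and 57 counts. It was at 0 to 29.4 normalized CPM with acetone and 30.3 to 49.3 with DNFB, without overlap, which is how it was chosen. Its log2 fold change was 1.99 with no edgeR test, and DESeq2 gave an adjusted p of 0.501. Rptn, the envelope protein repetin, held 20 and 95 counts, and the groups overlapped.

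Barrier proteases were led by Klk6, a kallikrein-related serine protease that lies on the plus strand of chromosome 7 from 43824499 to 43832030. Its values were 0, 14.7, 22.6, 16.1 and 5.67 normalized CPM with acetone and 75.3, 202, 189, 974 and 60.8 with DNFB. No library of the groups overlapped, and library 13 was the highest. Its fold change on the log2 scale was 4.63 ± 0.89 (SE, adjusted p = 0.0619 in edgeR and 0.000192 in DESeq2). Klk10 had 1.74 ± 0.59 and Klk7, which cuts the desmosomes of shedding cells, 1.46 ± 0.81, whereas Klk5, known as an activator of the others, had -1.66 ± 0.65, with adjusted p-values of 0.671, 0.988 and 0.796 in edgeR. Over the 13 of 17 members tested the median was 0.41, and 0 were called by edgeR and 1 by DESeq2. Limma voom called 2 higher, a share near its share over all genes. The median was 1.25 without acetone libraries 11 and 12 and -0.19 without acetone libraries 1 and 2.

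Tight junctions were covered by 3 tested members of 10, with a median of -0.26 and 0 at an unadjusted p-value under 0.05, and edgeR, DESeq2 and limma voom called 0. Cldn1, the claudin that seals the granular layer, was at 33.9 to 402 normalized CPM with acetone and 60.8 to 298 with DNFB, so the groups overlapped widely. Cgn, the junction plaque protein cingulin, was below the filter with 132 and 30 counts. It was at 33.9 to 77.9 normalized CPM with acetone and 10.1 to 27.4 with DNFB, without overlap, which is how it was chosen. Its log2 fold change was -1.51 with no edgeR test, and DESeq2 gave an adjusted p of 0.455.

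Lipid genes had medians near 0 as groups, and DESeq2 called Fabp5 among them. This gene encodes the fatty acid binding protein of keratinocytes and was at 120, 324, 67.7, 514 and 275 normalized CPM with acetone and at 979, 1847, 1647, 2194 and 967 with DNFB. Every DNFB library was above every acetone library, including library 14, which was low in Krt16 and Krt6a. Its log2 fold change was 2.52 ± 0.66 (SE, adjusted p = 0.262 in edgeR and 0.0293 in DESeq2).

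The epidermal barrier lipid list, on ceramide and lipoxygenase pathways, had a median of 0.05 over 16 of 32 members tested, and Fabp5 was the only member at an unadjusted p-value under 0.05 in edgeR. Sterol synthesis had a median of 0.03 over 23 of 27 members, and 0 were at an unadjusted p-value under 0.05. EdgeR and DESeq2 called 0 sterol genes and limma voom 1. Sebaceous lipid genes had a median of -0.32 over 19 of 31 members. Of these, Acsbg1, an acyl-CoA synthetase, had -1.88 ± 0.60 and Dgat2, which makes triglycerides, -1.39 ± 0.57, with adjusted p-values of 0.655 and 0.816 in edgeR. Scd3, a stearoyl-CoA desaturase of sebaceous glands, was below the filter with 138 and 19 counts. It was at 40.0 to 109 normalized CPM with acetone and 0 to 24.2 with DNFB, without overlap, which is how it was chosen. Its log2 fold change was -2.49 with no edgeR test, and DESeq2 gave an adjusted p of 0.143. Reads can be shared within the Scd family.

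Pigment genes were higher in 13 of 14 members tested of 22, with a median log2 fold change of 1.08. The receptor genes named above were higher in 93.9% of those tested, with a median of 0.86, and all genes tested in 54.1%. Dropping single libraries moved the median between 0.53 and 1.62, and it was 1.8 without acetone libraries 11 and 12 and 0.5 without acetone libraries 1 and 2. EdgeR and DESeq2 called 0 and limma voom 3 higher, beside the 14.1% it called higher over all genes tested. In edgeR, 2 were higher at an unadjusted p-value under 0.05. Mlana, a melanosome protein, was at 0, 0, 22.6, 74.1 and 25.5 normalized CPM with acetone and at 127, 40.4, 211, 80.6 and 155 with DNFB. DNFB library 5 lay inside the acetone range and the other 4 above it. The log2 fold change was 1.90 ± 0.64 (SE, adjusted p = 0.671, edgeR).

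Oca2, a melanosome transporter, had 1.49 ± 0.59, the melanin-synthesis enzymes Dct and Tyr 1.21 ± 0.58 and 0.99 ± 0.54, and Rab38, which carries melanosome cargo, -0.04. Melanocyte transcription factor Mitf, below the filter, held 38 and 28 counts. The summed level of the list was 707 to 2775 normalized CPM with acetone and 1655 to 4591 with DNFB, which overlap, and acetone library 11 was above 3 DNFB libraries.

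Hair follicle genes moved in the same range, with 16 of 18 tested members of 32 above 0, a median of 0.94 and no call by edgeR or DESeq2, against 1 lower by limma voom. Of all genes tested 54.1% were above 0. Of the receptor genes 93.9% were, with a median of 0.86, near the follicle values. Dropping single libraries moved the follicle median between 0.33 and 1.74, and it was 3.39 without acetone libraries 11 and 12 and 0.23 without acetone libraries 1 and 2. Before adjustment, 1 was higher and 1 lower (p under 0.05). Krt83, a keratin of the hair shaft, had a log2 fold change of 2.33 ± 0.85 and Cd34, a stem cell marker of the follicle bulge, -1.05 ± 0.43 (SE, adjusted p = 0.730 and 0.815, edgeR). The summed follicle level was 545 to 11501 normalized CPM with acetone and 1262 to 16006 with DNFB. DNFB libraries 4, 6 and 13 held 9290 to 16006 and libraries 5 and 14 only 1262 and 1798, so the follicle level varied more within the DNFB group than the medians of the groups differed.

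Of the neutrophil and activated myeloid genes, edgeR called Il1b, Acod1, S100a8 and S100a9. The 12 members that passed the filter, of 43, had log2 fold changes from 0.73 to 7.27 with a median of 2.99. Before adjustment 9 were higher (p under 0.05), against 2.14% of all genes tested. The filter shaped this count, since Acod1, S100a9 and S100a8 held only 5, 7 and 13 counts with acetone and passed through their DNFB libraries. Below the filter, the chemokine Cxcl1 held 37 and 20 counts and the decoy receptor Il1r2 229 and 88, with log2 fold changes of -0.35 and -0.38. DESeq2, which filters by the mean count over all libraries instead, called 15 members higher and 0 lower. Over all genes it tested, it called 0.238% higher and 0.244% lower. A member low in acetone could pass that filter through its DNFB libraries too. Among those outside edgeR's test were G0s2, a lipase inhibitor, with 4 counts in the acetone libraries and 126 in the DNFB libraries, and Hdc, the histamine-forming enzyme, with 3 and 114. Srgn, the granule proteoglycan serglycin, held 43 and 462 counts and was at 0 to 29.0 normalized CPM with acetone and 37.7 to 1021 with DNFB. The cytokine Il1a held 5 and 87 counts. For G0s2, Hdc, Srgn and Il1a the groups did not overlap, which is how they were chosen, and DESeq2 gave adjusted p-values of 0.000393, 0.000393, 0.000674 and 0.0115.

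Chemokines and receptors of the same list were also called by DESeq2. These were Cxcl2, which attracts neutrophils, at 0 to 63.3 normalized CPM with acetone and 37.7 to 1399 with DNFB, and Ccl4, at 0 to 31.1 and 27.4 to 906. The lectin receptor Clec4d held 1 count with acetone and 67 with DNFB, and Trem1, a receptor that amplifies neutrophil activation, 4 and 61. Genes that define maturing or mature neutrophils had few counts, with 1 and 4 for Ngp, 0 and 2 for Camp, 1 and 2 for Ltf and 3 and 7 for Ly6g. Others of the list held more with DNFB, namely Mmp8 with 12 and 46, Mmp9 with 23 and 40, Retnlg with 7 and 40 and Stfa2l1 with 0 and 18, and all of these groups overlapped. Cxcr2, a neutrophil chemokine receptor, held 11 and 56 counts, and Csf3r, the receptor of their growth factor, 15 and 35.

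Macrophage genes went both ways. Of 15 tested members of 33, Arg1 was called. Before adjustment 3 were higher and 1 lower (p under 0.05), against 2.14% and 3.0% over all genes tested. The median was 0.22. It was 1.34 without acetone libraries 11 and 12, where all 12 members tested were above 0, and -0.29 without acetone libraries 1 and 2. Spp1, the secreted phosphoprotein osteopontin, was at 40.0, 73.6, 0, 2.15 and 1.42 normalized CPM with acetone and at 65.0, 192, 117, 737 and 2900 with DNFB. Only DNFB library 4 lay inside the acetone range, and library 14 was far above the rest. Its log2 fold change was 5.83 ± 1.42 (SE, adjusted p = 0.184 in edgeR and 0.0170 in DESeq2). Chil3, a chitinase-like protein of activated macrophages, held 6 and 196 counts (adjusted p = 0.000326, DESeq2), and Ctsl, the lysosomal protease cathepsin L, had a log2 fold change of 1.66 ± 0.62 (adjusted p = 0.737, edgeR).

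C1qb and Retnla were highest in acetone libraries 11 and 12. C1qb, a chain of the complement protein C1q, was at 40.0, 58.9, 45.2, 417 and 683 normalized CPM with acetone and at 27.4, 50.5, 55.0, 64.9 and 67.6 with DNFB. Acetone libraries 11 and 12 carried the difference, and the other 3 were level with DNFB. This came to a log2 fold change of -2.32 ± 0.73 (SE, adjusted p = 0.655, edgeR). Retnla, a secreted product of alternatively activated macrophages, held 2503 and 11 counts (adjusted p = 0.0206, DESeq2), and its level was 1536 and 1510 normalized CPM in acetone libraries 11 and 12 against 0 to 73.6 in the other 8.

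**Figure D3:**
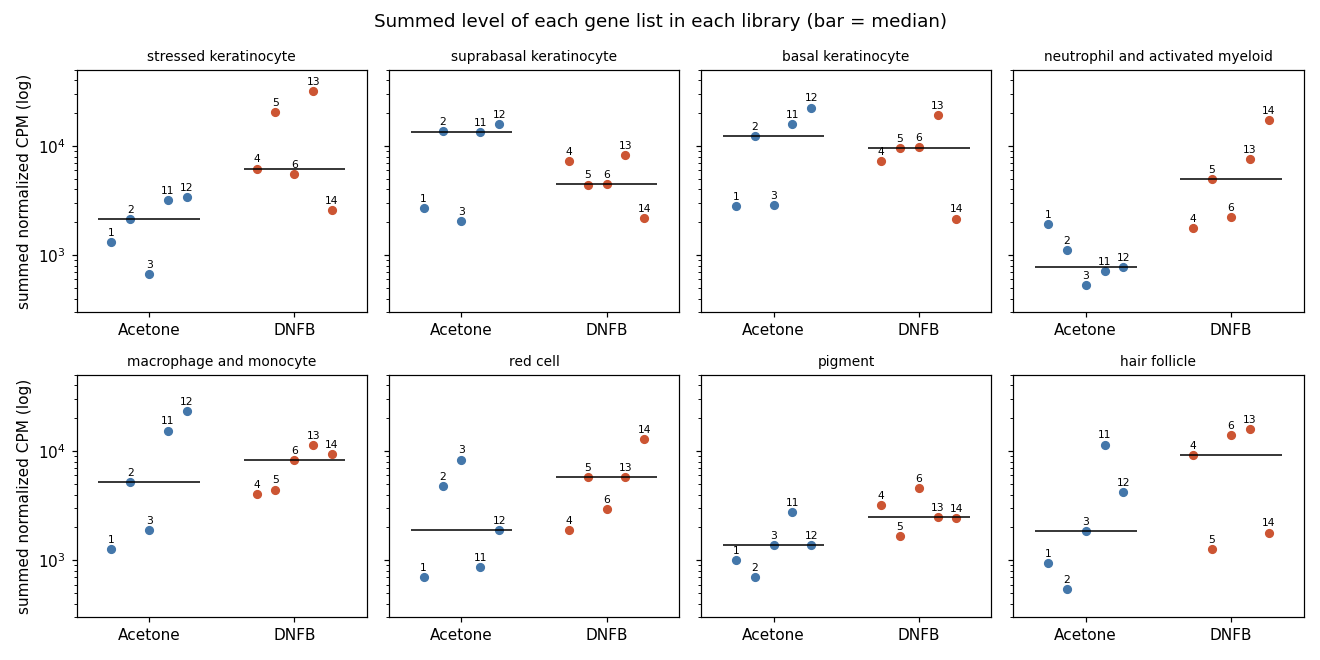
Summed normalized CPM (log axis) of 8 gene lists in each library, with label numbers and a bar at the group median. Stressed keratinocyte genes reached 20469 and 31704 in DNFB libraries 5 and 13 but 2575 in library 14, whereas neutrophil and activated myeloid genes reached 17209 in library 14. Macrophage genes were highest in acetone libraries 11 and 12, at 15476 and 23316.

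DNFB libraries differed among themselves in the summed levels of the lists. Library 13 and library 5 had the highest summed stressed keratinocyte level, at 31704 and 20469 normalized CPM, against 5525 and 6213 in libraries 6 and 4 and 2575 in library 14, which lay inside the acetone range of 666 to 3378. Library 14 also held less of the 4 epidermal keratins Krt5, Krt14, Krt1 and Krt10. Without TMM they held 653 CPM there, against 3275 to 9056 in the other 4 DNFB libraries. The part of this in its low stressed keratinocyte level was not tested. Library 14 had the highest myeloid level, at 17209 against 1756 to 7536 in the other 4, with an acetone range of 531 to 1920. It also had the lowest level of basal genes, at 2163 against 7319 to 19096, and the highest level of red cell genes, at 12957 against 1900 to 5835. With acetone, basal genes ranged from 2820 to 22469 and red cell genes from 700 to 8389. Acetone library 3 had the highest red cell level of its group and the lowest myeloid level, at 531. Since red cell and myeloid genes were both highest in DNFB library 14, the red cell level is given here. Its part in the myeloid values was not tested.

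Antigen-presenting cells showed opposite values in different control libraries. Over 6 of 22 Langerhans and dendritic cell members tested the median was -1.12, with 0 at an unadjusted p-value under 0.05 and 0 called by edgeR, DESeq2 or limma voom. H2-Ab1, a chain of MHC class II, was at 40.0, 236, 67.7, 861 and 2089 normalized CPM with acetone and at 209, 293, 290, 318 and 547 with DNFB. Acetone libraries 11 and 12 were above every DNFB library and acetone libraries 1 and 3 below every one. The log2 fold change of -1.02 ± 0.84 (SE, unadjusted p = 0.241, edgeR) turned to 1.41 without acetone libraries 11 and 12, and the list's median turned to 1.05. Cd207, which encodes langerin and defines Langerhans cells, held only 32 and 3 counts.

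T cell genes were near the limit of detection. Only Ptprc, the pan-leukocyte gene for CD45, was tested of 30 T and NK cell genes, with a log2 fold change of 0.95 ± 0.54 (SE, unadjusted p = 0.0987, edgeR). Cd3e held 12 and 18 counts, and the cytokine genes Ifng, Il4, Il13, Il17a and Il22 held at most 3 in either group. Gzma, a granzyme of cytotoxic cells, held 2 and 26 counts and was above 0 in each DNFB library, at 6.85 to 40.6 normalized CPM. Mast cell proteases held 12 and 4 counts for Mcpt4 and 6 and 12 for Cma1, so no difference in these proteases was detectable at this depth. Hpgds, a prostaglandin D synthase of mast cells and other cells, was the only mast cell and basophil member tested. It was at 37.6 to 180 normalized CPM with acetone and 17.6 to 50.5 with DNFB, with a log2 fold change of -1.18 ± 0.51 (SE, unadjusted p = 0.0331, adjusted p = 0.869, edgeR).

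Epithelial cytokines were mostly below the filter, which 2 of 30 in the table passed. Il1f9, which encodes interleukin-36γ of keratinocytes, held 6 and 45 counts and was at 0 to 5.37 normalized CPM with acetone and 19.8 to 50.5 with DNFB. DESeq2 gave Il1f9 an adjusted p of 0.147. Il24, a keratinocyte cytokine of wounds, held 1 and 24 counts. Ccl27a, a keratinocyte chemokine that attracts skin-homing T cells, held 686 and 56 counts, with 20 to 589 normalized CPM in the acetone libraries and 10.1 to 64.9 in the DNFB libraries (adjusted p = 0.0137, DESeq2). Interferon response genes had a median of -0.37 over 6 of 28 members, with 0 at an unadjusted p-value under 0.05 and 0 called by edgeR, DESeq2 or limma voom.

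Proliferation genes were above 0 in 18 of 20 tested members of 26, at a median of 0.30, against 54.1% above 0 and a median of 0.05 over all genes tested. Cdk1, the kinase that drives mitosis, had a log2 fold change of 1.34 ± 0.56 (SE, adjusted p = 0.847, edgeR) and was the only one at an unadjusted p-value under 0.05. NRF2 response genes, which detoxify electrophiles such as DNFB, had a median of 0.49 over 13 of 25 members. The iron store Fth1 was at 100, 618, 305, 814 and 1003 normalized CPM with acetone and at 380, 1342, 1027, 2129 and 4502 with DNFB. DNFB library 4 lay inside the acetone range and the other 4 above it, and the log2 fold change was 1.71 ± 0.76 (SE, adjusted p = 0.885, edgeR). Without acetone libraries 1 and 2 the medians of these lists were 0.06 and -0.12.

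Immediate early genes, which respond within minutes to growth factors, stress or tissue handling, were below 0 in all 16 tested members of 22, with a median of -1.14 and 3 lower before adjustment (p under 0.05). EdgeR and DESeq2 called 0 and limma voom 1 lower. Of all genes tested, 54.1% were above 0, 3.0% were lower before adjustment in edgeR and 2.08% were called lower by limma voom. Atf3, a stress transcription factor, was at 200, 221, 22.6, 1143 and 1076 normalized CPM with acetone and at 110, 10.1, 152, 269 and 135 with DNFB. Acetone libraries 11 and 12 stood above every other library. The log2 fold change was -1.98 ± 0.85 (SE, adjusted p = 0.869, edgeR), and without those libraries the list's median was 0.20.

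Marker genes of cells from beneath the epidermis were detected in both groups. Fibroblast genes had a summed level of 1355 to 4730 normalized CPM with acetone and 1191 to 1740 with DNFB and a median log2 fold change of -0.69 over 8 of 16 members. Col1a2, a chain of type I collagen, was at 560, 824, 215, 467 and 595 normalized CPM with acetone and at 123, 192, 160, 161 and 142 with DNFB. The groups did not overlap, and the log2 fold change was -1.77 ± 0.51 (SE, adjusted p = 0.477 in edgeR and 0.0220 in DESeq2). Skeletal muscle genes, with 6 of 10 tested, were all below 0 at a median of -0.71, and summed to 854 to 2326 with acetone and 466 to 1464 with DNFB. Red cell genes, all 5 tested, had a median of 0.84. No endothelial or smooth muscle and no pancreatic acinar member passed the filter, and the part of these cells in the differences above was not tested.

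**Figure D4:**
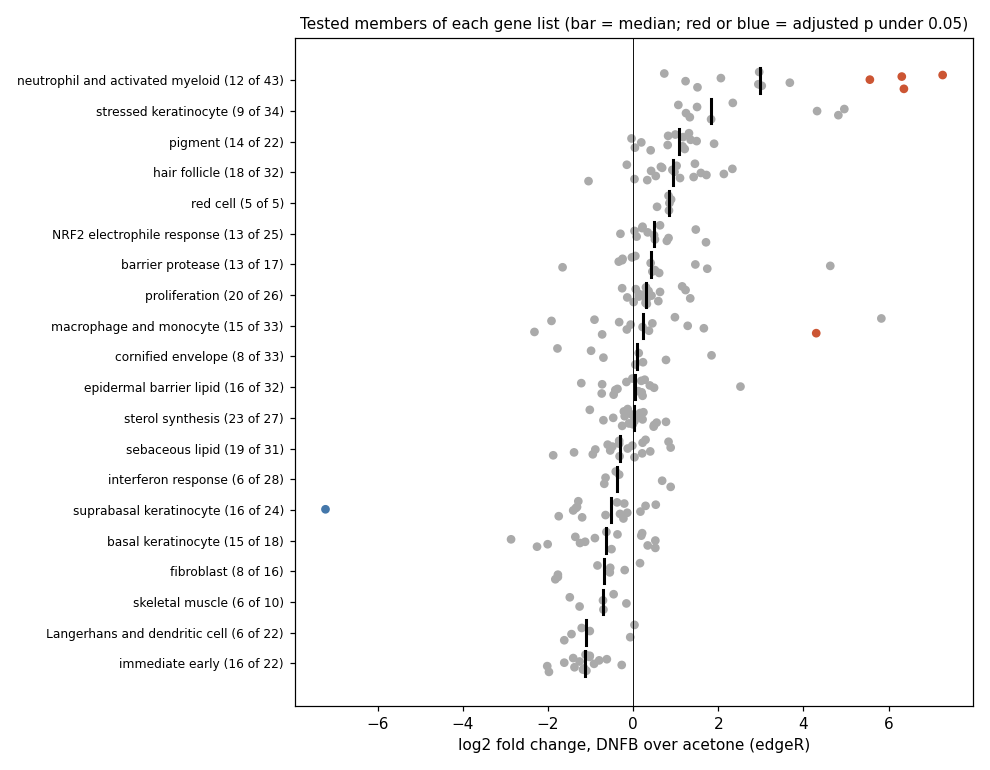
Log2 fold change (DNFB over acetone, edgeR) of every tested member of each list with at least 5 tested members, with tested and matched members in parentheses and a bar at the median. Red points passed the adjusted threshold as higher and the blue point as lower. Medians ran from -1.14 for immediate early genes to 2.99 for neutrophil and activated myeloid genes.

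Among other genes with small p-values whose groups did not overlap, Tgfbr2, a receptor of the growth factor TGF-β, had a log2 fold change of -2.05 ± 0.48 (SE) and Fcgbp, a mucin-like secreted protein, -3.51 ± 0.82, with adjusted p-values of 0.150 and 0.146 in edgeR. The clock gene Cry2 and the scaffold gene Tanc1 had -1.98 ± 0.53 and -1.56 ± 0.39 (adjusted p = 0.305 and 0.2, edgeR). On the higher side, Olfr1090, Mdga2 and Lin28b had 2.52 ± 0.57, 2.51 ± 0.58 and 2.38 ± 0.61 (adjusted p = 0.146, 0.146 and 0.257, edgeR). Olfr1090 is an olfactory receptor gene, and its 5 values with DNFB, from 85.1 to 313 normalized CPM, stood beside the higher receptor share of the DNFB libraries given above.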

How the data were processed

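Reads from Smart-Seq2 libraries of epidermis were mapped to the mouse genome mm10 (GRCm38) with STAR 2.5.3 and quantified with RSEM 1.3.1 by the authors, who deposited expected counts per gene without normalization. The submitters' processing notes also name DESeq2 1.24.0. The gene annotation was not given in the sources used here. The table holds 55471 genes, of which 55144 were named from GENCODE M21, and 0 columns of per-sample values were not used. Of the values, 94.7% over all 20 libraries of both tissues, and 93.4% over the epidermis libraries, were exactly whole (tolerance 0), and the rest were rounded.

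Satellite-like genes (12, by at least 50% shared 15-base words with Gm10800 and its relatives, or by name) were left out of library sizes and tests. The 5 DNFB and 5 acetone libraries were fitted without covariates in R 4.3.3 with edgeR 4.0.16 (filterByExpr, minimum count 10, TMM, glmQLFTest, Benjamini-Hochberg, threshold 0.05). The biological coefficient of variation was 0.582. DESeq2 1.42.0 and limma 3.58.1 (voom) were alternatives, beside other scalings and filters and leaving out each library. Members below the filter have counts, and p-values from DESeq2 only. For them edgeR's log2 fold change was fitted without a test. Library totals outside satellite-like genes ranged from 92640 to 1073987 counts, and their precision covers counting error only, since Smart-Seq2 reads carry no molecular identifiers.

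The members and gene lists were chosen with earlier results of these data known. Named genes were those past the threshold, the 10 higher and 10 lower genes with the smallest p-values among those without overlap, the 4 tested members of each list with the smallest p-values, and up to 4 members of each list below the filter without overlap. Krt1, Krt5, Krt10, Krt14 and the first members of each marker list served as tissue checks. Slpi, Cxcl2, Ccl4, Clec4d, Trem1, Ccl27a, Retnla and others given by counts were named after their values were seen. All 20 pairs of libraries within a group differed by more than sampling noise (2.65 to 17.1 as the chi-square statistic over its degrees of freedom). On simulated data for this comparison with 200 of 5007 genes changed by a log2 fold change of 3, edgeR recovered 86% with 8 false calls and DESeq2 95% with 34. The simulated counts were drawn independently for each gene, without the composition differences between the real libraries. These figures need not hold for the real data. Genes shared by near-identical copies (Krt6a and Krt6b, the Sprr2a, Stfa and hemoglobin genes) are uncertain. Some genes that the rule names are not reported here.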

Additional observations from a re-analysis of the deposited data

Results flagged for a closer look

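In 6 of 228 groups of 5 libraries, 1 library stood apart from the other 4 of its treatment, with a gap to its neighbour over 0.71 of the group's whole range on the log2 scale, and chance gives about 11.4 such groups. Lipm, a lipase of differentiating keratinocytes, was at 0 in acetone library 1 (ratio 0.866). Fosb, an immediate early gene, was at 0 in acetone library 3 (0.877), and both libraries are among the 3 shallowest of that treatment. Lipk, a related lipase, held 1.07 normalized CPM in acetone library 11 and 0 in the other 4 (1.0). With DNFB, the interferon-induced Gbp2 was at 10.3 in library 4 (0.896), Hpgds, a prostaglandin D synthase, at 17.6 in library 6 (0.719), and Sparc, a matrix protein of fibroblasts, at 60.8 in library 14 (0.729), each the lowest of its group.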

How the results depend on the processing

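Against 5 higher and 1 lower gene of 5007, edgeR called 49 and 68 with no filter on counts, 2 higher with at least 10 counts in at least 5 libraries, 2 higher with satellite-like genes kept, 2 lower with mitochondrial genes left out, and 3 lower at an adjusted p-value under 0.1. DESeq2 called 42 and 43, and limma voom with quality weights 705 and 104, of which 138 higher genes are olfactory or vomeronasal receptors, of 147 tested. The log2 ribosomal protein share as a covariate, added after seeing the data, gave 514 and 155, with 119 receptors among the higher. Without acetone libraries 11 and 12 there were 0 higher and 2 lower (298 and 157 at an unadjusted p-value under 0.05), and without acetone libraries 1 and 2, also added, 0 and 0 (566 and 375). Leaving out each library gave 0 to 14 higher and 0 to 16 lower genes, the most without acetone library 3, where 7242 genes were tested. Higher calls fell to 0 without acetone library 1, 2, 11 or 12 or DNFB library 5 or 13 (66 to 237 at an unadjusted p-value under 0.05), and were 8 without DNFB library 4. The cause of these shifts was not tested. RLE size factors left 5 and 1, and the label number range as a covariate 4 and 1, where Arg1 had an adjusted p of 0.0587.

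Signs turned in 26 of 2461 recomputed values, over 14 of the 114 named genes, none past the threshold. Without acetone libraries 11 and 12 the log2 fold changes became 1.11 for Cd74, 0.14 for H2-Aa, 1.41 for H2-Ab1, 0.77 for Cldn1, 0.18 for Evpl, 0.20 for Ier2, 0.26 for Ifi27l2a, 0.01 for Irf1 and 0.36 for Pla2g2f. With limma voom they became -0.31 for Cxcl14, -0.66 for Gbp2 and 0.26 for Hsd17b7. Without acetone libraries 1 and 2 they became -0.47 for Cxcl14, -0.34 for F11r and 0.03 for Hsd17b7, with no filter -0.09 for Cxcl14 and -0.07 for F11r, and with the label number range as a covariate 0.01 for Cldn1. With each library left out in turn, Ccnb1 ranged from -0.02 to 0.83, Cldn1 from -0.61 to 0.01, Cxcl14 from -0.20 to 0.69, and F11r from -0.13 to 0.65. No paired analysis was possible because the labels number the libraries without repeating a number across groups. With 1 count worth up to 20 normalized CPM in acetone library 1, many genes with few counts could not be compared.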

Other observations

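Among the 43 genes that DESeq2 called lower, several that were in no list are given here, chosen after their values were seen. The macrophage lectin Mgl2 held 179 counts with acetone and 2 with DNFB, the folate receptor Folr2 307 and 5, the ficolin Fcna 186 and 6, and the lectin Cd209f 373 and 16. The complement genes C4b and C3 held 404 and 15 and 326 and 19 counts, with log2 fold changes of -4.00 ± 0.96 and -3.21 ± 0.84 (SE, adjusted p = 0.0132 and 0.0323, DESeq2). Acetone libraries 11 and 12 held most of these counts, with 173 of the 179 for Mgl2, 306 of 307 for Folr2, 182 of 186 for Fcna, 366 of 373 for Cd209f, 396 of 404 for C4b and 318 of 326 for C3. They were also the deepest acetone libraries, so raw counts do not show whether they alone carried a difference. In normalized CPM every acetone library was above every DNFB library for Mgl2 and Fcna, with Fcna at 11.3 to 139 against 0 to 6.76. Acetone libraries 1, 2 and 3 held only 2, 1 and 1 Fcna counts and 1, 3 and 2 Mgl2 counts. One count there was worth 11.3 to 20 normalized CPM, so this lack of overlap does not settle the question either. For Folr2, Cd209f, C4b and C3 the groups overlapped. Folr2 was at 167 and 212 normalized CPM in acetone libraries 11 and 12 against 0 to 11.3 in the other 8, and C3 at 162 and 237 against 3.42 to 60.0. The fibroblast surface genes Cd248 and Pi16 had -3.79 ± 0.91 and -2.90 ± 0.69, and the protease inhibitor Timp2 -2.54 ± 0.58 (adjusted p = 0.0123, 0.0123 and 0.00827, DESeq2). Timp2 was at 56.5 to 220 normalized CPM with acetone and 8.79 to 40.6 with DNFB, without overlap.

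Of the 42 genes called higher by DESeq2, Clec7a, the β-glucan receptor dectin-1 of myeloid cells, was at 0 to 33.9 normalized CPM with acetone and 37.7 to 322 with DNFB, a log2 fold change of 3.20 ± 0.68 (SE, adjusted p = 0.00221, DESeq2). Inhba, which encodes activin A, a growth factor made in wounds, was at 0 to 20 with acetone and 37.7 to 115 with DNFB, with 2.66 ± 0.69 (adjusted p = 0.0275, DESeq2). Upp1, a uridine phosphorylase, held 1 count with acetone and 65 with DNFB. Olfr688 and Olfr1090 were the only olfactory receptor genes among the 42.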
